A study of Mus musculus with 10 samples.

Results

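Solute carriers are the membrane proteins whose gene names begin with Slc or Slco, and 109 of the 5928 genes measured in mouse liver on the Affymetrix MG_U74Cv2 array belong to them. Every probe set whose only gene symbol on the platform starts in that way was taken, 135 probe sets in all. For the 22 genes with several probe sets, the brightest on average was used. The study asked how liver transcripts respond when SREBPs (sterol regulatory element-binding proteins), which turn on cholesterol and fatty acid synthesis, are raised or lost. There were 5 groups of male mice. Mice named TgSREBP-1a and TgSREBP-2 express from a transgene the nuclear, active form of human SREBP-1a or SREBP-2, and were compared with their wild-type littermates, called SREBP wild type here. These 3 groups were 12 to 16 weeks old and spent 2 weeks on a high protein/low carbohydrate diet, which raises expression of the transgenes, whose promoter is not given in the sources used here. Scap-/- mice lack SCAP, the escort protein that SREBPs need to be activated, through an interferon-inducible MX1-Cre. They and their wild types, called Scap wild type here, were 10 to 12 weeks old, ate Teklad chow, and both received 4 injections of polyinosinic-polycytidylic acid, the inducer of Cre, the last of them 14 days before the liver was taken. Each group was a single pool of RNA from 5 livers (20 µg in total) hybridised to 2 arrays, so every p-value below measures the spread between hybridisations of a pool and not between mice.

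Solute carriers move amino acids, sugars, ions, vitamins, nucleotides, metals and organic anions across the plasma membrane and the membranes of organelles, mostly driven by gradients rather than by ATP hydrolysis. In hepatocytes they take up bile acids and drugs from blood, exchange amino acids and feed the urea cycle through mitochondrial carriers. Well-known hepatocyte carriers such as Slc10a1, Slco1b2 and Slc2a2 are not among the 109 and are not analysed here. By substrate, 21 of the genes carry amino acids and peptides, 17 inorganic ions, 13 nucleotide sugars and related donors, 12 bile acids and other organic anions and cations, and 11 belong to the mitochondrial family Slc25. A further 7 each carry amines and choline, metal ions, or nucleosides and vitamins, 4 carry sugars, 4 urea and other substrates, and 3 monocarboxylates. The last 3 are not transporters although their names begin with Slc: Slc9a3r2 encodes a scaffold protein, Slc7a6os is a gene opposite Slc7a6, and Slc2a4rg-ps is a pseudogene.

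Values are the deposited RMA expression levels on the log2 scale, so a difference of 1 is a 2-fold difference. Duplicate arrays correlated at 0.992 to 0.995 over probe sets, and array medians lay between 4.69 and 4.77. The tissue label could be checked on only 3 of 15 hepatocyte markers listed. Hpx, the plasma haem-binding protein hemopexin, lay between 10.12 and 11.16 on all 10 arrays, while Serpina1a, alpha-1-antitrypsin, lay at 3.22 to 3.71 and Ahsg, fetuin-A, at 2.66 to 3.29. The check thus rests on 1 of the 3, as the other 2, abundant liver transcripts, read low here. As a scale, Nsdhl, a sterol synthesis enzyme, differed by -2.47 in Scap-/- against Scap wild type. Against SREBP wild type it differed by 3.12 in TgSREBP-1a and by 3.50 in TgSREBP-2. The baselines were unlike: SREBP wild type, at a mean of 7.48, differed by -2.52 from Scap wild type, at 10.00. Among the solute carriers, 80 of the 109 (73.4%) differed by less than 1.2-fold in all 5 comparisons, and 4369 of the 5928 genes measured (73.7%) did so.

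Only Slc3a1 and Slc9a4 had group means that spanned more than 1 log2 unit. The range of the 5 group means had a median of 0.23 over the solute carriers and 0.22 over all genes, and the widest gap between duplicate arrays had a median of 0.28 and 0.27. A range above 0.5 was seen for 9 solute carriers (8.26%) against 8.54% of all genes. These were Slc3a1, Slc9a4, Slc19a2, Slc39a4, Slc6a16, Slc35b2, Slc22a21, Slc35a5 and Slc30a10. For 46 of the 109 (42.2%) the group means spread wider than the widest duplicate gap, as for 38.3% of all genes.

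**Figure D1:**
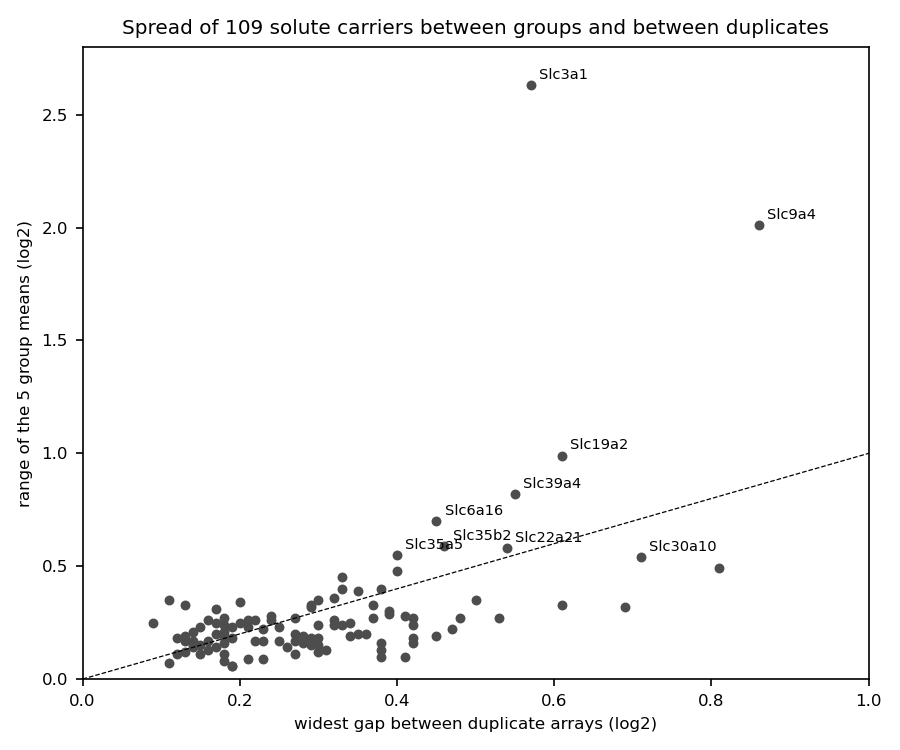
Range of the 5 group means (vertical axis, log2) against the widest gap between duplicate arrays (horizontal axis, log2) for the 109 solute carriers, 1 point per gene, with a dashed line where both are equal. Slc3a1 at 2.63 and Slc9a4 at 2.01 stand above 1, and 46 points lie above the line.

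**Figure D2:**
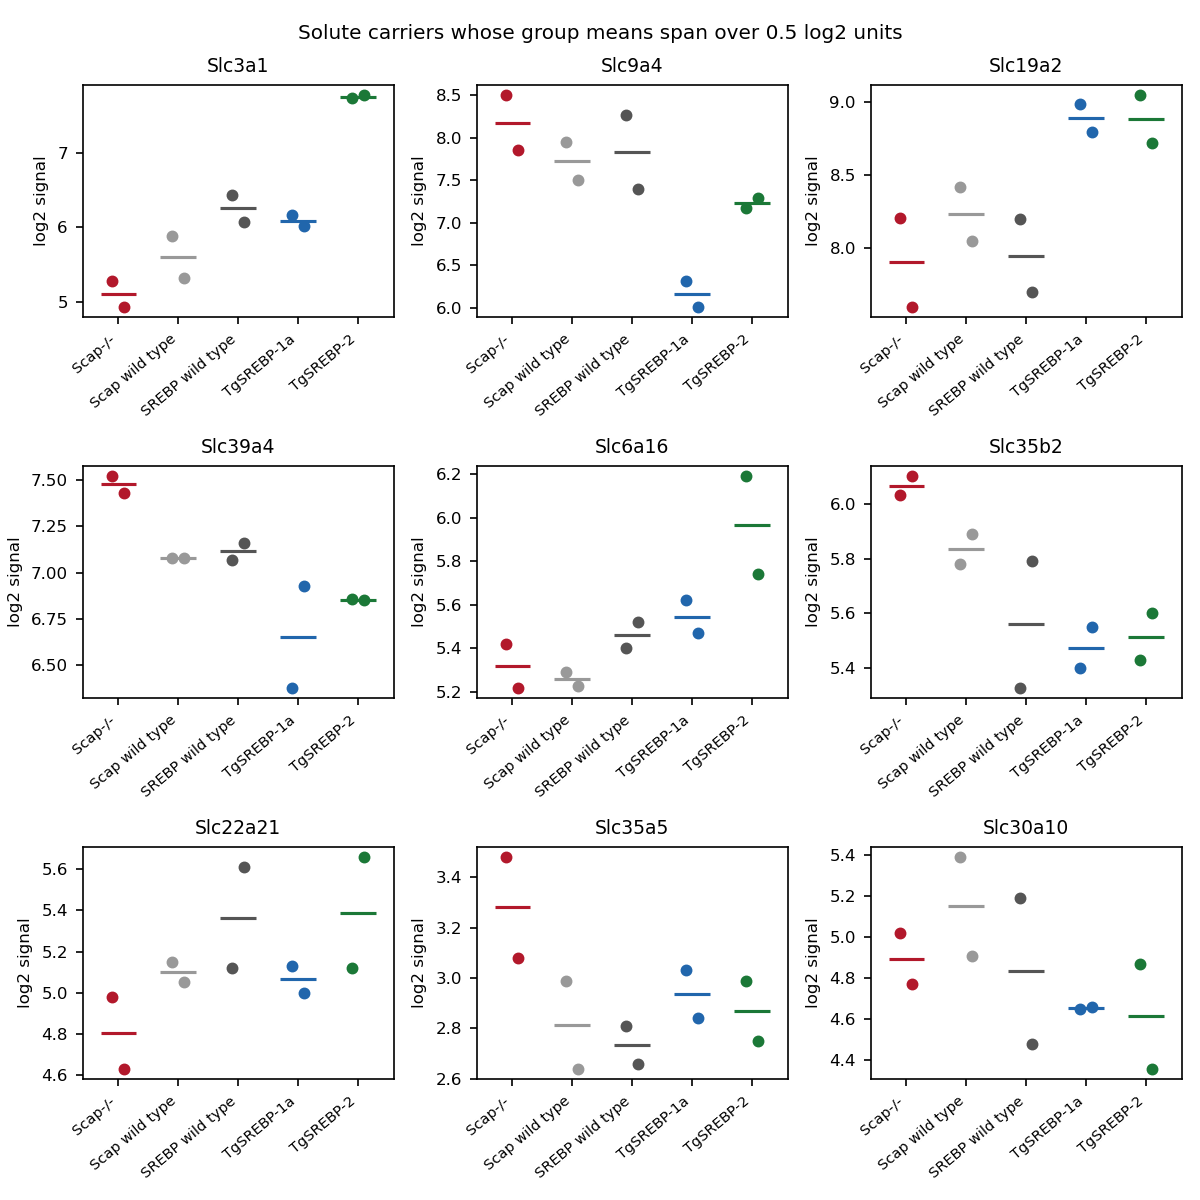
Level on each array (log2) of the 9 solute carriers whose group means span more than 0.5, with the 2 arrays of a group as points and their mean as a line. Slc3a1 is highest on the 2 TgSREBP-2 arrays (7.73 and 7.77) and Slc9a4 lowest on the 2 TgSREBP-1a arrays (6.31 and 6.01).

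Calls were few in every comparison. A gene was called when the limma adjusted p was under 0.05 and the difference at least 1.5-fold. In Scap-/- against Scap wild type no solute carrier was called, where 0.152% of all genes were, and 5 solute carriers had an unadjusted p under 0.05 (4.59% against 4.25% of all genes). In TgSREBP-1a against SREBP wild type Slc9a4 was called, 1 of 109 where 1.5% of all genes were called, and 9 had an unadjusted p under 0.05 (8.26% against 10.9%). In TgSREBP-2 against SREBP wild type Slc3a1 was called, 1 of 109 where 0.202% of all genes were, and 8 had an unadjusted p under 0.05 (7.34% against 6.97%). Between the transgenics, TgSREBP-1a against TgSREBP-2, Slc3a1 was again the 1 call, where 0.742% of all genes were called, with 8 at an unadjusted p under 0.05 (7.34% against 8.99%). The wild types differ at least in age, diet, injections, strain and study, which cannot be told apart. Between them no solute carrier was called where 0.135% of all genes were, and 7 had an unadjusted p under 0.05 (6.42% against 7.73%). With a single call in each of 3 comparisons, the counts give no ground to set the solute carriers apart from other genes.

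Separation of the arrays gave a similar picture. In Scap-/- the arrays of 31 solute carriers (28.4%) did not overlap those of Scap wild type, where 29.5% of all genes did not overlap. The TgSREBP-1a arrays stood apart from SREBP wild type for 40 (36.7%) against 40.9% of all genes. For TgSREBP-2 the number was 31 (28.4%) against 34.4%, between the transgenics 44 (40.4%) against 38.3%, and between the wild types 33 (30.3%) against 37.6%. The median difference over the solute carriers was 0.02 in Scap-/-, -0.04 in TgSREBP-1a and 0.00 in TgSREBP-2, where over all genes it was 0.01, -0.02 and 0.00.

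**Figure D3:**
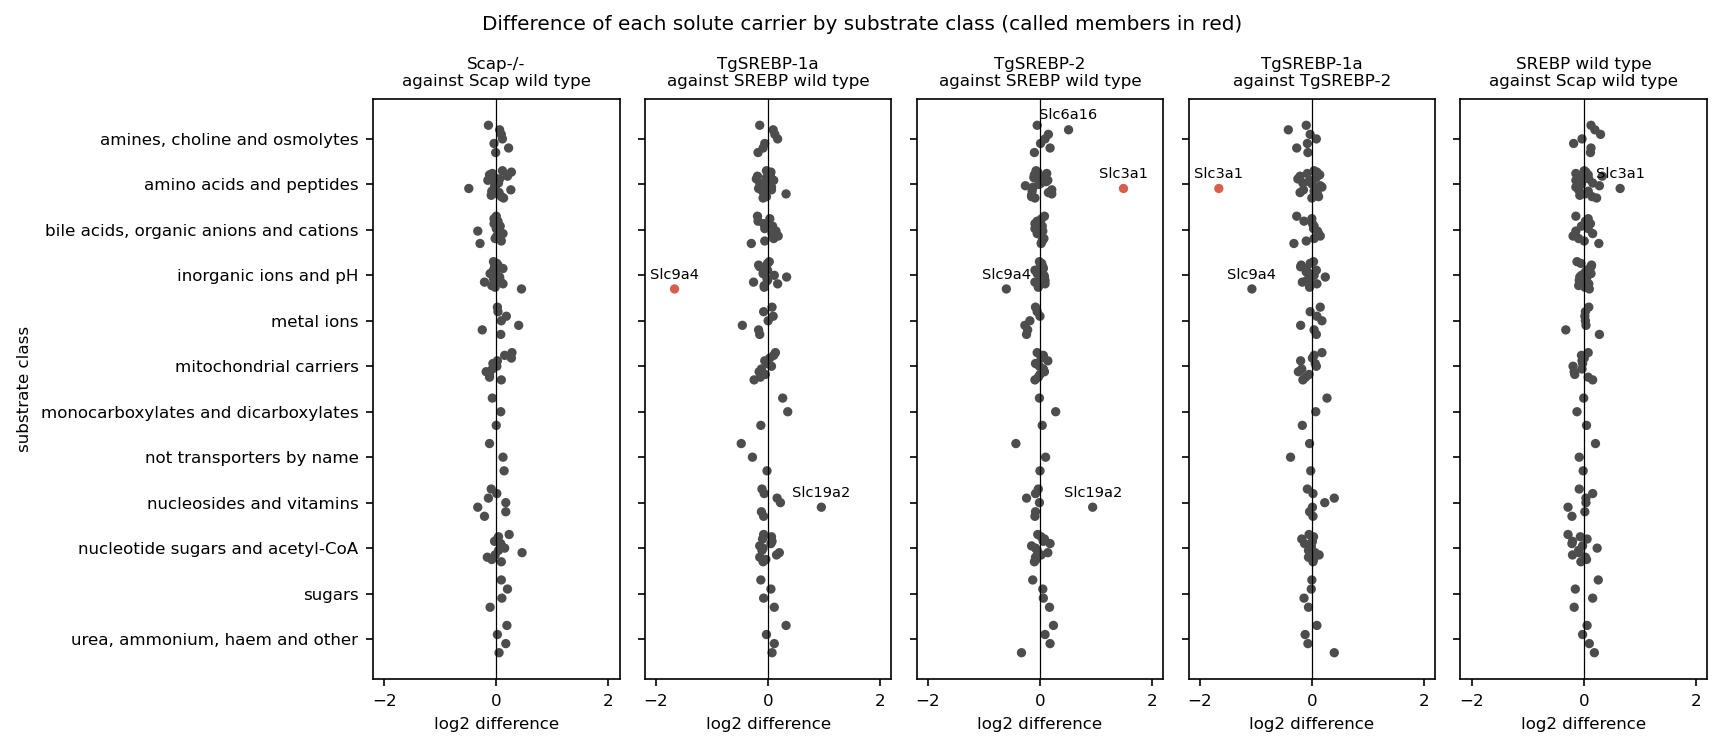
Log2 difference of each solute carrier in the 5 comparisons (panels), grouped by substrate class, with called genes in red and names where a difference exceeds 0.5 in size. Nearly all points lie close to 0, and the called ones are Slc9a4 in TgSREBP-1a (-1.67) and Slc3a1 in TgSREBP-2 (1.49) and between the transgenics (-1.66).

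Among the amino acid carriers, Slc3a1 rose in TgSREBP-2 liver, and the other 20 were not called in any comparison. Slc3a1 encodes rBAT, the heavy subunit of the cystine and dibasic amino acid transporter of kidney and intestine, whose loss causes cystinuria. Its only probe set, 165780_s_at, carries a suffix for probes that may match more than 1 transcript, and the gene lies on chromosome 17. It read 7.73 and 7.77 on the TgSREBP-2 arrays, 6.16 and 6.02 on TgSREBP-1a, and 6.44 and 6.07 on SREBP wild type. On the chow-fed pair it read 5.29 and 4.94 in Scap-/- and 5.89 and 5.32 in Scap wild type. Both TgSREBP-2 arrays thus lay above all 8 others, and Scap-/- lay below every other group.

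The rise of Slc3a1 in TgSREBP-2 was 2.81-fold (7.75 ± 0.03 against 6.26 ± 0.26, SD, n = 2 arrays of a pool each; log2 difference 1.49, SE 0.185, limma adjusted p = 0.00771). TgSREBP-1a stood 3.15-fold below TgSREBP-2 (6.09 ± 0.10, log2 difference -1.66, limma adjusted p = 0.00137) and differed from SREBP wild type by -0.17. The difference was -0.49 in Scap-/- (5.12 ± 0.25 against 5.61 ± 0.40, limma adjusted p = 0.999) and 0.65 between the wild types (limma adjusted p = 0.452), neither of which passed. The call against wild type was lost without SREBP wild type replicate 2 (1.31, limma adjusted p = 0.0999), without TgSREBP-2 replicate 1 (1.51, adjusted p = 0.13) and without TgSREBP-2 replicate 2 (1.47, adjusted p = 0.0979). Between the transgenics it held in each of the 20 alternatives that measured the gene, at -1.72 to -1.59 with a highest adjusted p of 0.0275.

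Slc3a1 is also expressed in the exocrine pancreas, and some pancreatic acinar transcripts moved across these pools. Of 15 acinar markers listed, 7 were measured, and their mean level was 6.02 and 5.78 on the TgSREBP-2 arrays, 5.52 and 5.25 on SREBP wild type, and 4.33 and 4.41 on TgSREBP-1a. It was 5.12 and 5.04 in Scap wild type and 4.47 and 4.39 in Scap-/-. Cpa1, pancreatic carboxypeptidase A, read 10.84 and 10.49 on TgSREBP-2, 10.25 and 9.53 on SREBP wild type, and 5.38 and 5.60 on TgSREBP-1a. In TgSREBP-2 against SREBP wild type the differences were 0.78 for Cpa1, 1.08 for Gp2, a zymogen granule glycoprotein, and 1.12 for Cuzd1, a zymogen granule protein, and 2 of the 7 markers were called. In TgSREBP-1a, where Slc3a1 differed by -0.17, Cpa1 differed by -4.39, Gp2 by -1.48 and Cuzd1 by -0.66, and 3 of 7 were called. The rest of the 7 moved less and were not called. Cela2a, Amy2a5, Ptf1a and Cpb1 differed by 0.34, 0.25, 0.03 and 0.01 in TgSREBP-2. In TgSREBP-1a they differed by -0.23, -0.10, -0.02 and -0.21. In TgSREBP-1a against TgSREBP-2 Slc3a1 differed by -1.66, Cpa1 by -5.18, Gp2 by -2.56 and Cuzd1 by -1.78, and 3 of 7 were called. In Scap-/- Slc3a1 differed by -0.49, Cpa1 by -2.86, Gp2 by -1.32 and Cuzd1 by -0.39, and 2 of 7 were called. Amy2a5 and Ptf1a differed by 0.19 and 0.15 there. In Scap wild type Cpa1 read 8.37 and 8.39, below SREBP wild type, and it alone was called between the wild types. Slc3a1 was also lower in Scap wild type. The part of acinar RNA in the Slc3a1 result was not tested. In pooled tissue RNA, fewer cells of a type and less RNA per cell cannot be told apart.

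**Figure D4:**
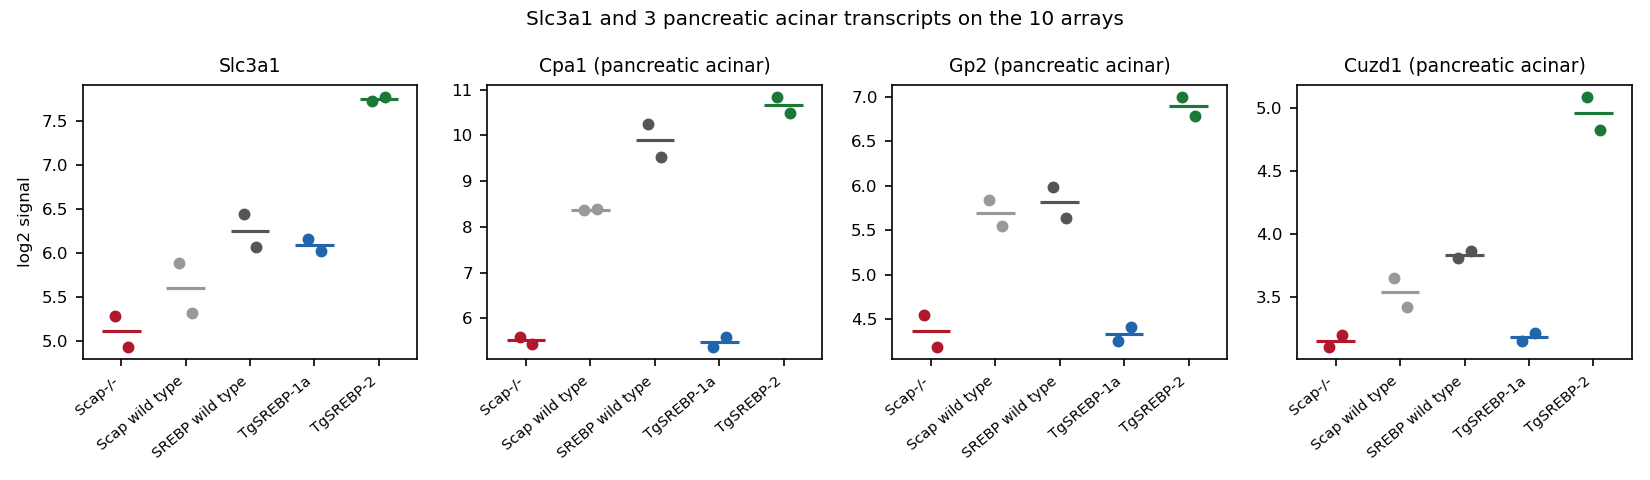
Level on each of the 10 arrays (log2) of Slc3a1 and of Cpa1, Gp2 and Cuzd1, by group. These are the ones that moved most among the 7 pancreatic acinar transcripts measured, and the rest are not shown. All 4 genes shown are highest on the TgSREBP-2 arrays, and lower on the Scap-/- arrays than on those of Scap wild type. On TgSREBP-1a Cpa1 stands at 5.38 and 5.60, far below SREBP wild type, and Slc3a1 at 6.16 and 6.02, close to it.

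The other amino acid carriers moved little. Slc1a5, the glutamine and neutral amino acid exchanger ASCT2, read 9.14 and 9.15 on TgSREBP-1a, 9.0 and 9.09 on TgSREBP-2, and 8.77 to 8.91 on the other 6 arrays. All 4 transgenic arrays were higher, by small amounts: 0.32 in TgSREBP-1a (limma adjusted p = 0.233) and 0.21 in TgSREBP-2 (adjusted p = 0.785). Its dimmer probe set, 134726_f_at, did not separate all 4. That one read 5.61 and 5.67 in TgSREBP-1a, above those other 6 arrays. In TgSREBP-2 it read 5.48 and 5.67, against 5.43 and 5.48 in SREBP wild type and 5.43 and 5.56 in Scap wild type. Slc66a1, a lysosomal exporter of cationic amino acids, was 0.33 higher in SREBP wild type than in Scap wild type (6.70 and 6.78 against 6.36 and 6.46, limma adjusted p = 0.452) and 0.21 lower in TgSREBP-1a than in TgSREBP-2. Slc3a2, the CD98 heavy chain and relative of Slc3a1, stayed between 5.29 and 5.59, with group means spanning 0.17. Slc38a2, the sodium-coupled neutral amino acid transporter SNAT2, spanned 0.35, less than its widest duplicate gap of 0.50. Slc38a9, a lysosomal arginine transporter that signals to mTORC1, spanned 0.26 and Slc7a6, a light chain that pairs with Slc3a2, 0.23. Slc1a2, the glutamate transporter GLT-1, differed by -0.26 in TgSREBP-2 and Slc6a18, a renal neutral amino acid transporter, by -0.21 in TgSREBP-1a. Over the 21 genes, 16 differed by less than 1.2-fold in all 5 comparisons.

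Slc9a4 fell in TgSREBP-1a liver and was the only ion carrier called. It encodes NHE4, a sodium/proton exchanger best known from the basolateral membrane of gastric parietal cells and kidney tubules, and lies on chromosome 1. Its only probe set, 168495_i_at, is not a plain _at set and drops out where only those are fitted. It read 6.31 and 6.01 on TgSREBP-1a and 7.17 and 7.29 on TgSREBP-2. On SREBP wild type it read 8.26 and 7.39, on Scap wild type 7.95 and 7.50, and on Scap-/- 8.50 and 7.85. The 2 TgSREBP-1a arrays lay below all others, the 2 TgSREBP-2 arrays came next, and the other 3 groups overlapped each other.

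Against SREBP wild type, Slc9a4 was 3.18-fold lower in TgSREBP-1a (6.16 ± 0.21 against 7.83 ± 0.61, n = 2 arrays of a pool each; log2 difference -1.67, SE 0.269, limma adjusted p = 0.0111). TgSREBP-2 (7.23 ± 0.08) differed from SREBP wild type by -0.60 (limma adjusted p = 0.785) and TgSREBP-1a from TgSREBP-2 by -1.07 (adjusted p = 0.18). Neither passed. Scap-/- differed from its wild type by 0.45 (8.17 ± 0.46 against 7.72 ± 0.32, limma adjusted p = 0.999), in the opposite direction to the transgenics. The duplicates of SREBP wild type were 0.86 apart, and the call was lost without SREBP wild type replicate 1 (-1.23, limma adjusted p = 0.0611), without TgSREBP-1a replicate 1 (-1.81, adjusted p = 0.0781) and without TgSREBP-1a replicate 2 (-1.52, adjusted p = 0.124). Between the transgenics the difference passed when only those 4 arrays were fitted (adjusted p = 0.00332). Of the bile duct markers, 2 of 5 were measured: Epcam, an adhesion protein of bile duct epithelium, fell in TgSREBP-1a (7.82 and 7.87 against 8.52 and 8.45, difference -0.63, limma adjusted p = 0.00538). In TgSREBP-2 it read 7.90 and 7.99 (-0.54, adjusted p = 0.0587). Sox9, the other marker, differed by 0.24 and 0.18. The part of other epithelial cells in the Slc9a4 result was not tested.

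The remaining 16 ion carriers spanned at most 0.33, and 15 of the 17 differed by less than 1.2-fold in all 5 comparisons. Slc13a4, a sulfate transporter, spanned 0.33 and was 0.33 higher in TgSREBP-1a than in SREBP wild type (7.51 and 7.27 against 7.22 and 6.92, limma adjusted p = 0.381). The sodium/proton exchangers Slc9a2 and Slc9a5 each spanned 0.13. Slc9b1, a sperm sodium/proton exchanger read at 3.26 to 3.66, differed by -0.26 in TgSREBP-1a (adjusted p = 0.502). Slc4a1, band 3 of red blood cells, was the steadiest of the bright ion carriers, at 8.47 to 8.61 on all 10 arrays. Slc12a4, the potassium/chloride cotransporter KCC1, spanned 0.26, and the sodium/calcium exchangers Slc8a1 and Slc8a3 spanned 0.21 and 0.19.

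Slc19a2 was the highest solute carrier difference in TgSREBP-1a and the second in TgSREBP-2. It passed in neither when all 10 arrays and all tested probe sets were fitted without a block. The gene encodes a high-affinity thiamine transporter of the plasma membrane and lies on chromosome 1. Probe set 166751_at read 8.99 and 8.80 on TgSREBP-1a and 9.05 and 8.72 on TgSREBP-2. SREBP wild type read 8.20 and 7.70, Scap wild type 8.42 and 8.05, and Scap-/- 8.21 and 7.60. All 4 transgenic arrays (8.72 to 9.05) were above the other 6 (7.60 to 8.42), and the other 3 groups overlapped.

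The difference of Slc19a2 from SREBP wild type was 1.93-fold in TgSREBP-1a (8.90 ± 0.14 against 7.95 ± 0.35, n = 2 arrays of a pool each; log2 difference 0.95, SE 0.218, limma adjusted p = 0.0746). In TgSREBP-2 it was 1.91-fold (8.89 ± 0.23, log2 difference 0.94, adjusted p = 0.257), and the transgenics differed from each other by 0.01. In Scap-/- the difference was -0.33 and between the wild types -0.28. The TgSREBP-1a difference passed when only plain _at probe sets were fitted (limma adjusted p = 0.0398), when only the arrays of both groups were fitted (adjusted p = 0.034) and without Scap-/- replicate 1 or 2 (adjusted p = 0.0298 for each). Macrophage markers also moved: Vsig4, a complement receptor of Kupffer cells, and Laptm5, a lysosomal protein of blood cells, the 2 measured of 7, rose by 1.14 and 1.05 in TgSREBP-1a and differed by 0.74 and 0.54 in TgSREBP-2. Their part in the Slc19a2 result was not tested. Of the other nucleoside and vitamin carriers, Slc19a3, the second thiamine transporter, spanned 0.19 and Slc28a1, a sodium-coupled nucleoside transporter, 0.16. Slc43a3, a purine nucleobase transporter that read no more than 3.44 on any array, was 0.40 higher in TgSREBP-1a than in TgSREBP-2 (limma adjusted p = 0.338).

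The promoters of the 2 genes that were higher in a transgenic by the widest margin are shown to compare their composition, from 250 bases before to 50 bases after the start site (RefSeq, GRCm38.p6), as Slc3a1 was highest in TgSREBP-2 alone and Slc19a2 in both transgenics. Capitals mark matches, on either strand, to the motifs searched: TCACNCCAC, the form of the sterol regulatory element used here, CACGTG, the E-box, CCAAT, the core of the NF-Y site, and GGGCGG, the GC box. The Slc3a1 promoter lies at chr17:85028097-85028396 on the forward strand and the Slc19a2 promoter at chr1:164248796-164249095 on the forward strand.
Slc3a1: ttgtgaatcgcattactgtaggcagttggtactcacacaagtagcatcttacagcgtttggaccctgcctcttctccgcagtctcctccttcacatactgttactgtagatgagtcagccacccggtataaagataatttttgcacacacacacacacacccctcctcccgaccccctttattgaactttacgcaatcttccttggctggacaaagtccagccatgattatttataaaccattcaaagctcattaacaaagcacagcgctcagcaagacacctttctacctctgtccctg
Slc19a2: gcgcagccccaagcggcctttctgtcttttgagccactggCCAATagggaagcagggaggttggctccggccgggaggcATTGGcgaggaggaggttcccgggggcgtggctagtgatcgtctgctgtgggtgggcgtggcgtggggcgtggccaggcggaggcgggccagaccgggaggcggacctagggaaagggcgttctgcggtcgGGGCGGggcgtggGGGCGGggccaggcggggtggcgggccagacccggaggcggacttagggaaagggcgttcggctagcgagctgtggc
None of the 4 motifs occurs in the Slc3a1 window. The Slc19a2 window holds CCAAT on each strand, with first bases at -210 and -171 from the start site, and GGGCGG at -40 and -27. Windows were found for 84 of the 109 solute carriers (101 windows). TCACNCCAC occurs in 1.24% of all 32851 promoter windows and in 1 of the 101 (0.99%), that of Slc9a3r2, CACGTG in 7.15% and 11 (10.9%), CCAAT in 37.4% and 35 (34.7%), and GGGCGG in 35.7% and 57 (56.4%). These are matches of letters in short windows, not sites.

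Slc39a4 led the metal carriers, with means that spanned 0.82. It encodes ZIP4, the zinc importer whose loss causes acrodermatitis enteropathica. The gene read 7.52 and 7.43 in Scap-/-, 7.08 and 7.08 in Scap wild type, 7.07 and 7.16 in SREBP wild type, 6.38 and 6.93 in TgSREBP-1a, and 6.86 and 6.85 in TgSREBP-2. Scap-/- lay above all other arrays and the 4 transgenic arrays below them. No difference passed: 0.40 in Scap-/- (1.32-fold, limma adjusted p = 0.999), -0.46 in TgSREBP-1a (1.38-fold, adjusted p = 0.26) and -0.27 in TgSREBP-2 (adjusted p = 0.83). Without TgSREBP-1a replicate 2, which read 0.55 above its duplicate, the difference was -0.74 and passed (adjusted p = 0.0254), but TgSREBP-1a was then a single array, the lower of the pair, whose spread is assumed to be that of the other groups. Of the bile duct markers, Epcam differed by -0.63 in TgSREBP-1a, -0.54 in TgSREBP-2 and 0.07 in Scap-/-. Sox9, the other one measured, differed by 0.24, 0.18 and -0.03. The part of other epithelial cells in the Slc39a4 values was not tested. The manganese exporter Slc30a10 spanned 0.54 but its duplicates were up to 0.71 apart, and the zinc carriers Slc39a3 and Slc30a2 spanned 0.18 and 0.08.

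Across these classes, 5 solute carriers had all 4 transgenic arrays on one side of the other 6. Higher were Slc19a2 and Slc1a5, the latter on its brighter probe set only, 2 of 109 where 1.6% of all genes were. Lower were Slc9a4, Slc39a4 and Slc35f6, a protein of the nucleotide sugar family, 3 of 109 where 1.89% were. Slc35f6 read 4.24 to 4.32 on the transgenic arrays and 4.35 to 4.56 on the others. The nearest transgenic and other arrays read 7.29 and 7.39 for Slc9a4, and 6.93 and 7.07 for Slc39a4. In all but Slc19a2 (8.72 and 8.42) this gap was smaller than 0.28, the median of the widest duplicate gap. In all 5 it was smaller than the gene's own widest duplicate gap. That was 0.61 for Slc19a2, 0.13 for Slc1a5, 0.86 for Slc9a4, 0.55 for Slc39a4 and 0.09 for Slc35f6.

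The widest range among the mitochondrial carriers was the lowest of any class. None of the 11 was called and none spanned more than 0.33, the value of Slc25a29, a carrier of basic amino acids. In TgSREBP-1a, in TgSREBP-2, between the transgenics and between the wild types all 11 differed by less than 1.2-fold. Of all genes, 87.4% to 91.4% did so in these comparisons. In Scap-/- 9 of the 11 did (81.8%), against 94.7% of all genes. Slc25a13, citrin, the liver's aspartate/glutamate carrier of the urea cycle, read 6.07 and 5.95 in TgSREBP-1a against 6.19 and 6.35 in SREBP wild type (-0.25, limma adjusted p = 0.45). Its paralogue Slc25a12, aralar, spanned 0.19. The mitochondrial NAD carrier Slc25a51 was 0.28 higher in Scap-/- (3.64 and 3.66 against 3.36 and 3.39, adjusted p = 0.999), but single arrays of SREBP wild type read as low as 3.25 and as high as 3.66. Slc25a16 differed by 0.27 there, on 1 array of 7.68 whose duplicate read 7.15. Slc25a37, mitoferrin-1, the mitochondrial iron importer, spanned 0.20, Slc25a33, a pyrimidine nucleotide carrier, 0.22, and Slc25a3, the phosphate carrier, 0.11 at a level of 3.18 to 3.43.

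None of the 12 carriers of bile acids, organic anions and cations was called. In TgSREBP-2 all 12 differed by less than 1.2-fold, as did 91.4% of all genes. In Scap-/- 83.3% of the 12 did, against 94.7% of all genes. Slc51a, the alpha subunit of the basolateral bile acid exporter, stayed between 5.97 and 6.23. The organic anion transporters Slco2b1 and Slc22a8 spanned 0.18 and 0.09, and Slc22a18 0.11 at 8.35 to 8.55. Slco1c1, known as a thyroid hormone transporter, was 0.33 lower in Scap-/- than in Scap wild type (7.33 and 7.27 against 7.54 and 7.73, difference -0.33, limma adjusted p = 0.999). Slc22a21, a carnitine transporter, had the widest range of the class at 0.58, but its duplicates in TgSREBP-2 read 5.12 and 5.66 and those in SREBP wild type 5.12 and 5.61. Slc17a1, an organic anion and phosphate transporter, spanned 0.15 at 3.73 to 4.13.

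The nucleotide sugar family Slc35 gave 2 ranges above 0.5 among its 13 genes. Slc35b2, which carries the sulfate donor PAPS into the Golgi, read 6.03 and 6.10 in Scap-/-, 5.78 and 5.89 in Scap wild type, 5.33 and 5.79 in SREBP wild type, 5.40 and 5.55 in TgSREBP-1a, and 5.43 and 5.60 in TgSREBP-2. Scap-/- was highest, and the 3 groups on the protein-rich diet overlapped each other. Slc35a5 was 0.46 higher in Scap-/- (3.48 and 3.08 against 2.99 and 2.64, limma adjusted p = 0.999). Slc35a3, the UDP-N-acetylglucosamine transporter of the Golgi, depended on the probe set. Its brighter one, 168040_at, spanned 0.24 and differed by -0.11 in TgSREBP-1a. The dimmer 166402_i_at read 4.71 and 4.54 in TgSREBP-1a against 3.84 and 3.66 in SREBP wild type (0.88, limma adjusted p = 0.059). It differed by 0.64 in TgSREBP-2. In Scap-/- it read 4.63 and 4.06, overlapping TgSREBP-1a, and in Scap wild type 4.44 and 3.96. Slc7a3, a cationic amino acid transporter, split likewise: the brightest probe set spanned 0.15, and 167669_i_at differed by -0.62 between the wild types. The SREBP wild type duplicates of 167669_i_at read 3.42 and 4.01. The remaining probe set, 169264_r_at, differed by -0.08 between the wild types.

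In the smaller classes no gene was called. Slc6a16, an orphan of the neurotransmitter transporter family, read 6.19 and 5.74 in TgSREBP-2 against 5.40 and 5.52 in SREBP wild type (1.42-fold, limma adjusted p = 0.417) and 5.62 and 5.47 in TgSREBP-1a. Both TgSREBP-2 arrays were above all 8 others, 1 of them by only a small margin. The choline transporter Slc44a1 spanned 0.25. Slc16a13, a monocarboxylate transporter, was 0.35 higher in TgSREBP-1a (5.67 and 5.78 against 5.37 and 5.38, adjusted p = 0.294) and 0.28 higher in TgSREBP-2 (5.80 and 5.50, adjusted p = 0.783), although its levels in Scap-/- reached 5.64. Among the sugar carriers the fructose transporter Slc2a5 spanned 0.26, and Slc2a3, the glucose transporter GLUT3, 0.17. The urea transporters Slc14a1 and Slc14a2 spanned 0.27 and 0.12, and Slc49a4, of the haem transporter family, was 0.40 higher in TgSREBP-1a than in TgSREBP-2 (adjusted p = 0.544). Slc7a6os, no transporter, differed by -0.48 in TgSREBP-1a and -0.43 in TgSREBP-2 at levels of 2.64 to 3.46. No detection call accompanies these values, and signals this low may not lie above background.

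Transporters outside the Slc families were set beside them. Of 21 such genes measured, Abcg8, a subunit of the sterol exporter of liver and intestine, rose by 1.35 in TgSREBP-1a and 1.99 in TgSREBP-2. Abca5, an ABC transporter of lysosomes and endosomes, rose by 1.14 in TgSREBP-1a and stood 1.15 higher there than in TgSREBP-2. None of the 21 was called in Scap-/- or between the wild types.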

How the data were processed

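Duplicate arrays of 5 RNA pools were analysed. The deposited log2 values were made by the authors with RMA, per the submitters' processing notes, which give no version; the series' design text also names Microarray Suite. The log2 scale was inferred from the range of 2.17 to 13.3 and the near-equal array medians, and the values were not transformed further. The precision rests on the number of arrays, as no counts exist. After 66 control probe sets were left out, 11868 were tested: the platform annotation names 1 gene for 7717, several for 150 and none for 4001. All 109 solute carrier symbols matched RefSeq.

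The 5 comparisons came from limma 3.58.1 (R 4.3.3), in a fit of all 10 arrays (5 residual and 6.26 prior degrees of freedom), two-sided, with Benjamini-Hochberg adjustment over all tested probe sets. A call needed an adjusted p under 0.05 and 1.5-fold. The median SE of a log2 difference was 0.114. An SD is that of 2 arrays of a pool.

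Named genes were Slc3a1, Slc9a4, all called genes, the 3 brightest and the extreme differences of each class, and the 10 highest and 10 lowest differences with separated arrays; other genes are named as close relatives or for their range. Substrate classes follow gene families, and 5 genes were placed after the file was read. Members, classes and marker lists were chosen with earlier results of these data known. Of the other marker lists, 2 of 8 erythroid, 2 of 7 endothelial and 2 of 4 skeletal muscle genes were measured and none was called; no kidney tubule, intestinal, stellate, lymphocyte or adipocyte marker was measured. Alternatives were quantile normalization, median centring, a floor on level of 5, plain _at probe sets only, a robust trended variance, other fold floors, only the arrays compared, a replicate block, the mean of a gene's probe sets, and each array left out.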

Additional observations from a re-analysis of the deposited data

How the results depend on the processing

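Over the alternatives run, 7896 gene results gave 7532 that kept their side of the threshold and their size, 348 that moved by more than their error without a call, 10 that gained a call, 6 that lost one, and 0 called values that changed sign. The number of solute carriers called was 0 in every alternative for Scap-/- and for the wild types. In TgSREBP-1a it was 1, with 0 to 2 when an array was left out, 2 with only the arrays of the groups compared and 2 with the replicate block. In TgSREBP-2 it was 1, with 0 to 1 when an array was left out, 0 with plain _at probe sets, which do not include Slc3a1, and 2 with the replicate block. Between the transgenics it was 1, also whichever array was left out, with 0 for plain _at probe sets, 2 with only the arrays compared, 2 with the replicate block and 2 with a crossed pairing of the TgSREBP-2 arrays that was added after seeing the data. The genes added under the replicate block were Slc19a2 in both transgenics against SREBP wild type (adjusted p = 0.000616 in TgSREBP-1a and 0.00244 in TgSREBP-2) and Slc9a4 between the transgenics (adjusted p = 0.0131, and 0.00593 with the crossed pairing). The labels tie the replicate numbers to no shared batch or day, and the data were mixed: differences between duplicates correlated at 0.204 to 0.332 among 4 groups, while TgSREBP-2 gave 0.216 with SREBP wild type and -0.114 to -0.175 with the other 3, so the numbers were not taken as pairs. Slc19a2 read higher on replicate 1 than on replicate 2 in all 5 groups. Without TgSREBP-1a replicate 2 the TgSREBP-1a count stayed at 1, with Slc39a4 in place of Slc9a4. Leaving out an array leaves its group with a lone array, assumed to vary like the other groups. With 1 pool per group the spread between mice is unknown, and without detection calls the dim probe sets give no bound on background.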
